A study of Xenopus laevis with 6 samples.

Results

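Mitochondrial ribosomal protein genes, named mrpl for proteins first assigned to the large subunit and mrps for those first assigned to the small subunit, were examined in the optic tectum of Xenopus laevis tadpoles. Members were all annotated genes whose name is mrpl or mrps followed by a number and at most 1 letter, with the suffix .L or .S ignored. This gave 105 of 45099 genes in the deposited annotation, 61 named mrpl and 44 named mrps, for 75 different proteins. X. laevis carries a long (L) and a short (S) subgenome, and 60 members were L copies, 44 were S copies and 1 carried no suffix. By place in the ribosome as known from mammals, 64 members belonged to the large subunit and 40 to the small one. The last, mrps36.S, bears the name but is known in mammals as a subunit of a mitochondrial dehydrogenase complex and not of the ribosome. The gene mrps18c.1.L did not match the naming rule and was not included.

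Tectum was taken at stage 46, and there were 3 libraries in each of 2 groups. NPC libraries were enriched for neural progenitors and came from dark-exposed tadpoles, and IN libraries were enriched for immature neurons and came from tadpoles exposed to visual stimulation. No genotype, transgene or age beyond the stage is given in the labels, nor is the way in which cells were enriched, nor whether each library came from separate animals. Cell population and visual condition therefore cannot be told apart in any comparison here.

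Mitochondria translate the few proteins encoded by their own DNA, all of them parts of the respiratory chain and ATP synthase, on a ribosome of their own. Its RNAs are mitochondrial, whereas its proteins are made from nuclear genes, translated in the cytosol and imported. Many of these proteins descend from bacterial ribosomal proteins, and others were added during the evolution of mitochondria. Of the 75 proteins here, 48 were of the first kind and 26 of the second, as classified from mammalian ribosomes. Mutations in human genes of this family cause mitochondrial disease, often with damage to the brain.

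The libraries held 8422751 to 9914191 counted reads, and members took 0.0948% to 0.152% of them. Markers of progenitors and of neurons were both present in all libraries. The 20 copies of progenitor markers summed to 1421, 3121 and 3567 CPM (counts scaled to library size) in NPC against 1945, 2826 and 4327 in IN, and the 18 copies of neuronal markers to 4908, 8947 and 8361 against 4181, 6058 and 6701. Neither set of sums was separated by group. Fold changes were higher in IN for 14 of the 20 progenitor copies and higher in NPC for 12 of the 18 neuronal ones, the reverse of the group names. The groups did not overlap in 0 progenitor copies and in 2 neuronal ones, against 8.76% of all genes tested. These 2 were neurod1.L, higher in IN, and elavl4.S, higher in NPC. The markers as sets therefore did not tell the enriched populations apart. Erythroid markers, 5 of 13 copies at 0 reads, summed to 33.3 to 935 CPM in NPC and 26.7 to 503 in IN, and skin markers, 2 of 16 copies at 0, to 114 to 541 and 80.2 to 578. Skeletal muscle markers, 1 of 12 copies at 0, summed to 15.2 to 22.8 CPM in NPC and 21.2 to 35.6 in IN. The part of these cells in the results was not tested, and in such bulk libraries fewer cells of a type and less RNA per cell cannot be told apart.

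Transcripts of the mitochondrial ribosome had a lower median read level than all genes tested, but a similar one per length. Of the 105 members, 81 were tested (51 of the large subunit, 29 of the small subunit and mrps36.S), and the other 24 did not pass the filter on low counts. That filter asks for a minimum count in about as many libraries as a group holds. Copies high in only 1 or 2 libraries therefore also failed it, such as mrpl37.L with 948 reads in all and mrpl41.L with 726. The median tested member was at 10.8 CPM, against 20.3 CPM for all 19158 genes tested. These short transcripts were closer to the rest per length, at a median of 7.92 CPM per kilobase of annotated exon (RPKM) against 7.28 RPKM for all genes tested. Large-subunit copies had a median of 7.61 RPKM and small-subunit copies 10.1 RPKM. Copies of bacterial type had a median of 6.84 RPKM and mitochondrion-specific ones 10.3 RPKM. Cytosolic ribosomal protein genes, 94 copies tested, were at a median of 238 RPKM, and subunits of respiratory complex I, 60 copies tested, at 17.1 RPKM.

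The levels of tested copies spread from 0.863 RPKM for mrpl1.L to 82.8 RPKM for mrps21.L, and untested ones went down to 0. The proteins are built into the ribosome in equal numbers apart from the stalk, but L and S copies of 1 protein were counted apart. The other copy of mrpl1, mrpl1.S, was at 3.83 RPKM. In the large subunit mrpl38.L, a protein of the central protuberance (9_10L, 37165435 to 37171402, minus strand, build 9.1), led at 44.5 ± 31.6 RPKM (SD, n = 6). It was followed by mrpl51.L at 36.4 ± 76.6, mrpl33.L at 36.0 ± 42.5, mrpl14.L at 31.7 ± 45.3 and mrpl16.S at 29.3 ± 18.3 RPKM. In the small subunit mrps21.L (8L, 104172116 to 104176425, minus strand) led at 82.8 ± 74.8 RPKM. It was followed by mrps33.S at 58.6 ± 31.3, mrps15.L at 40.7 ± 46.3, mrps26.L at 38.9 ± 51.0 and mrps25.S at 35.0 ± 52.3 RPKM. The standard deviations reached or passed the means for mrpl51.L, mrpl33.L, mrpl14.L, mrps15.L, mrps26.L and mrps25.S, so that neighbours in either order did not differ beyond their spread.

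The abundant copies not taken up again below also varied between libraries. mrpl33.L had 23, 494 and 146 reads in NPC against 108, 83 and 89 in IN, and mrpl14.L had 608, 24 and 0 against 328, 31 and 47. mrpl16.S had 441, 752 and 42 reads against 778, 393 and 371, and mrps25.S 368, 141 and 43 against 31, 269 and 1776. The groups overlapped in all 4, which are proteins of bacterial type except mrps25.S. The genes whose name and place differ overlapped too where mrps30 and mrps36 were concerned: mrps30.L had 94, 236 and 115 reads against 71, 430 and 117, and mrps36.S 45, 1 and 75 against 150, 3 and 3.

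**Figure D1:**
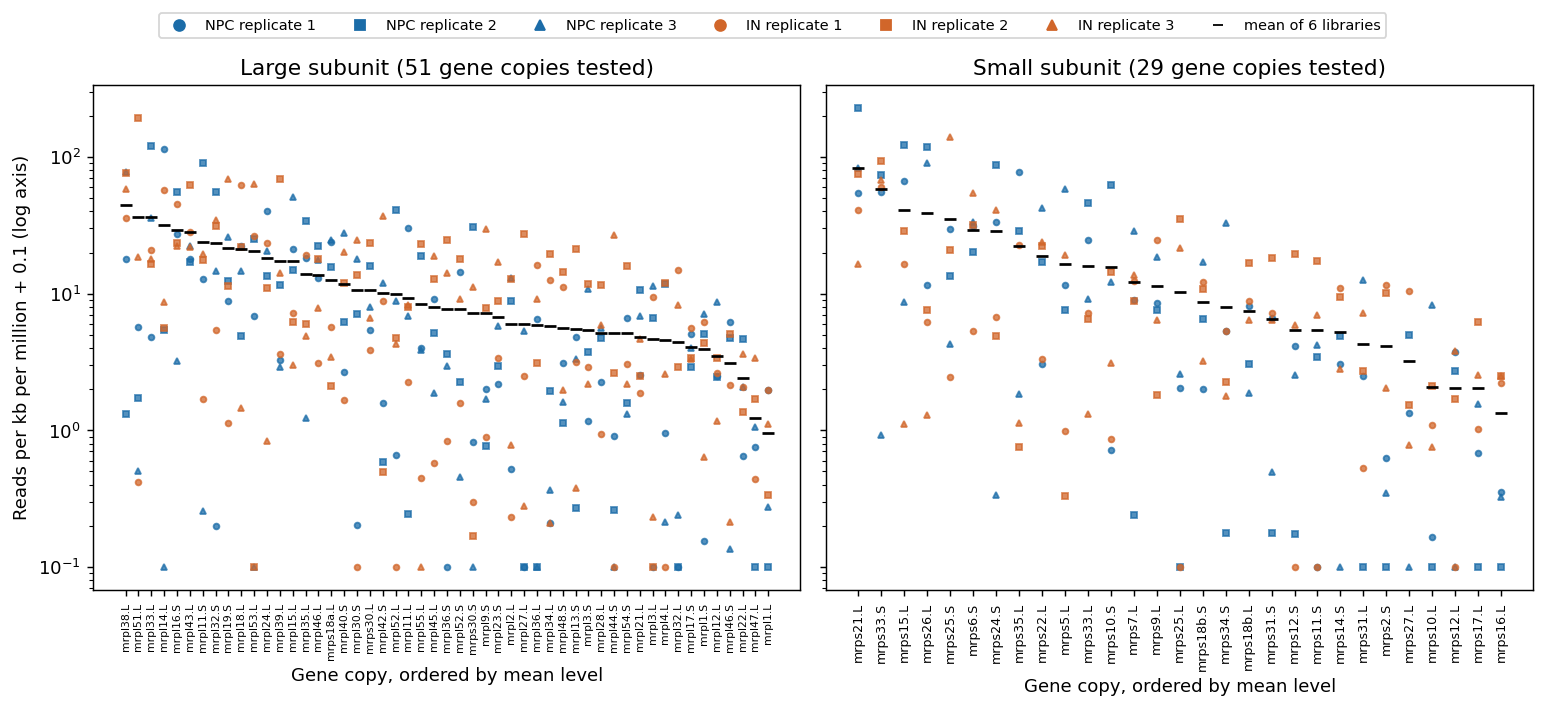
Level of each tested large- and small-subunit gene copy (RPKM + 0.1, log axis) in the 6 libraries, ordered by the mean, which is the black bar; blue points are NPC and orange points IN libraries. Mean levels fall from 82.8 to 0.863 RPKM, and single libraries of the same group lie far apart at nearly every copy.

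Wide spread between libraries, also between those of 1 group, was the main feature of these genes. Of 486 values of tested members, 70 were of at most 3 reads. In 26 of the 81 tested members (32.1%), 1 library had at most 3 reads and another of the same group at least 100, which held for 19.4% of all genes tested. The coefficient of variation over the 6 libraries had a median of 107% for tested members and 86.6% for all genes tested, which lie at a higher median CPM. It was 88.8% for complex I genes and 38.4% for the far more abundant cytosolic ribosomal protein genes. In 33 members (40.7%) a single library held over 50% of the summed level, against 25.8% of all genes tested. That library was IN replicate 2 for 11 of them, NPC replicate 2 for 8, IN replicate 3 for 6, NPC replicates 1 and 3 for 3 each and IN replicate 1 for 2. The part of the lower level of members in their higher shares than all genes was not tested. More than 3 reads were seen for 76, 65 and 69 of the 105 members in NPC libraries 1, 2 and 3 and for 75, 86 and 85 in the IN libraries. Over all genes, at least 1 read was seen for 24752, 21182 and 22042 in NPC and for 24300, 23440 and 23659 in IN. NPC replicates 2 and 3 were thus the lowest in both counts.

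The widest swings among tested members of at least 10 CPM were in mrpl51.L, mrps30.S, mrps34.S and mrps10.S. Among untested ones mrpl41.L, with 3, 0 and 0 reads in NPC against 0, 12 and 711 in IN, and mrpl37.L, with 1, 1 and 525 against 1, 415 and 5, varied at least as much as mrps34.S. mrpl51.L, a mitochondrion-specific large-subunit protein, had 33, 8 and 2 reads in NPC against 2, 1176 and 111 in IN. mrps30.S, whose product sits in the large subunit of the mammalian ribosome despite its name, had 10, 360 and 0 reads in NPC against 3, 1 and 159 in IN. In mrpl51.L and mrps30.S 1 or 2 libraries carried nearly all reads, and the groups overlapped. mrps34.S, known in mammals to stabilise the small subunit, had 81, 1 and 426 reads against 87, 35 and 27. mrps10.S, a protein of bacterial type, had 9, 776 and 148 reads against 12, 219 and 45. The deposited counts over coding sequence alone differed for both: mrps34.S had 0, 0 and 0 coding reads in NPC against 29, 31 and 13 in IN, the other direction and without overlap, and mrps10.S had 2, 0 and 62 against 0, 147 and 16. For 5 tested members the coding count was above the mRNA count, so coding reads are not a part of the mRNA reads and do not show where those lie.

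The steadiest members of at least 10 CPM were mrpl46.L, mrps33.S, mrps6.S and mrpl43.L, with coefficients of variation of 52.9%, 53.3%, 55.3% and 61.1%. mrpl46.L, a central protuberance protein, had 133, 195 and 150 reads in NPC against 33, 192 and 82 in IN. mrps6.S had 186, 100 and 164 reads against 33, 196 and 329, and mrpl43.L 191, 155 and 200 against 324, 701 and 240. None of these was separated by group, and mrps33.S had 4 reads in NPC replicate 3 against 319 to 565 in the other libraries. mrps6.S overlaps slc5a3.S on the same strand by 2148 bases. Over coding sequence mrps6.S was less steady, with 27, 94 and 153 reads in NPC against 1, 96 and 309 in IN. The lowest coefficient of variation of any tested member, 27.3%, belonged to mrpl17.S, an exit tunnel protein with 67, 32 and 44 reads in NPC against 80, 46 and 45 in IN.

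No member passed the comparison of IN with NPC. After Benjamini-Hochberg adjustment over all 19158 genes, 0 of 81 members passed edgeR's quasi-likelihood test, as did 0 of all genes (0.0%). At an unadjusted p under 0.05 there were 4 members (4.94%), where all genes tested gave 3.43%. Of these, 3 were higher in IN (3.7%, background 1.51%) and 1 was higher in NPC (1.23%, background 1.93%). The 3 higher in IN were mrpl32.L, mrps2.S and mrpl51.L. As given below, mrpl32.L and mrps2.S passed the filter on low counts only through their IN libraries. For mrpl51.L, IN replicate 2 held 87.9% of the level. Their count is therefore no result about the members. limma-voom called 0 of all genes and so 0 members, and edgeR without a filter on low counts called 0 members where it called 0.0515% of all genes. DESeq2 called 1 of the 73 members to which it gave an adjusted p (1.37%), mrps26.L, against 0.499% of genes with an adjusted p. The groups did not overlap for 7 members (8.64%), against 8.76% of all genes tested. They were 3 members higher in IN (background 4.7%) and 4 higher in NPC (background 4.06%), so the shares lay near those of all genes. With 1 library left out, where fewer libraries have to be apart, it was 11 to 25 members, or 12.1% to 28.1% of members tested, against 16.6% to 21.5% of all genes tested. The share of 28.1% came without IN replicate 1 (18.3% of all genes) and that of 12.1% without NPC replicate 2 (17.9% of all genes). Fold changes were above 0 in 46 members (56.8%, against 49.0% of all genes tested) and below 0 in 35. The median log2 fold change (IN minus NPC) was 0.10 for members against -0.03 for all genes tested. The median member had a standard error of 1.75 on the log2 scale and a 95% interval reaching 3.65 to each side, so even a large difference was not detectable for most of them.

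**Figure D2:**
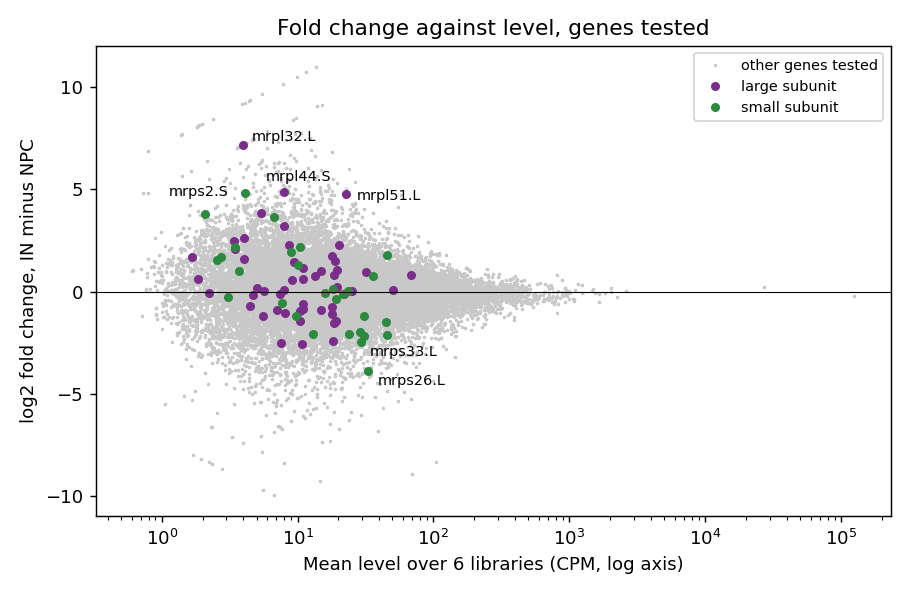
log2 fold change (IN minus NPC) against mean level (CPM, log axis) for every gene tested, with large-subunit members in purple and small-subunit members in green. Members lie within the cloud of other genes, from -3.88 for mrps26.L to 7.17 for mrpl32.L, and none passed the adjusted test.

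The lowest p of any member belonged to mrps26.L, a mitochondrion-specific protein of the small subunit (Scaffold54, 807784 to 815378, minus strand). It had 92, 803 and 606 reads in NPC against 53, 63 and 10 in IN. All NPC libraries lay above all IN libraries, although NPC replicate 1 was close to them. The level was 62.3 ± 47.0 CPM in NPC against 4.22 ± 2.82 CPM in IN (SD, 3 libraries each), a log2 fold change of -3.88 (SE 1.25, edgeR unadjusted p 0.00547, adjusted p 1; DESeq2 adjusted p 0.0384). Over coding sequence alone it had 81, 803 and 598 reads against 51, 62 and 10. Across the alternatives its log2 fold change ran from -4.40 to -3.35 and its adjusted p from 0.0384 to 1.

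The other members higher in NPC without overlap were mrps18a.L, mrps33.L and mrpl15.L. mrps18a.L encodes a relative of bacterial S18 that in mammals is found in the large subunit (5L, 23816959 to 23819979, minus strand). It had 194, 107 and 168 reads in NPC against 49, 17 and 28 in IN, with a log2 fold change of -2.54 (SE 1.66, edgeR unadjusted p 0.14, adjusted p 1). Its NPC libraries were close to each other, at 18.4 ± 4.36 CPM. mrps33.L (Scaffold31, 79532 to 84246, minus strand) had 432, 683 and 133 reads against 133, 117 and 22, with equal read counts in NPC replicate 3 and IN replicate 1 before scaling. mrpl15.L, of bacterial type (6L, 115712397 to 115723024, plus strand), had 213, 127 and 432 reads against 77, 65 and 30. Their log2 fold changes were -2.44 (SE 1.20) and -2.43 (SE 1.39). Over coding sequence mrps33.L had 191, 467 and 49 reads against 51, 82 and 8. There NPC replicate 3 lay below IN replicates 1 and 2, so the read counts of the groups overlapped. mrpl15.L overlaps a gene without a symbol on the opposite strand by 325 bases, and its coding reads came to 105.5% of its mRNA reads, so the coding count held reads that the mRNA count did not.

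Of the remaining members of lowest p on this side, mrps15.L, of bacterial type, had 714, 1106 and 76 reads in NPC against 188, 320 and 11 in IN. mrps21.L, also of bacterial type and the most abundant member per length, had 281, 990 and 355 reads against 226, 400 and 86. Both groups overlapped in both genes. The log2 fold changes were -2.10 (SE 1.14) for mrps15.L and -1.47 (SE 0.97) for mrps21.L, and neither passed. Without NPC replicate 2 they were -1.28 and -0.64.

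Among tested members in the other direction, the groups did not overlap for mrpl32.L, mrps2.S and mrps16.L, all of bacterial type and all under 5 CPM on average. With so few NPC reads, these copies passed the filter on low counts only through their IN libraries. Their separation was therefore fixed by that filter and is no result of its own. The untested mrpl10.S, given below, was also higher in IN without overlap, at a mean of 6.35 CPM. mrpl32.L (6L, 55493205 to 55498599, minus strand) had 0, 0 and 1 reads in NPC against 137, 25 and 72 in IN. The summed reads, 1 against 234, gave an IN to NPC ratio of 200 (95% exact interval 35.5 to 7923, for counting error alone). Since reads were pooled over the libraries of each group, that interval leaves out the spread between libraries. It says nothing on a difference between groups. The fold change fitted by edgeR, which depends on the prior count, was 7.17 on the log2 scale (SE 2.62, unadjusted p 0.0125, adjusted p 1). Over coding sequence mrpl32.L had 0 reads in every NPC library and 0, 14 and 13 in IN, so that IN replicate 1, highest in the mRNA table, was at 0 in the coding table. Its other copy, mrpl32.S, had 1, 473 and 122 reads in NPC against 57, 328 and 355 in IN.

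mrps2.S (8S, 29372868 to 29374820, minus strand) had 5, 0 and 2 reads in NPC against 118, 100 and 19 in IN, with a log2 fold change of 4.84 (SE 2.32, edgeR unadjusted p 0.0499, adjusted p 1). mrps16.L (7L, 90025409 to 90032675, plus strand) had 4, 0 and 3 reads against 36, 40 and 39, with a log2 fold change of 3.78 (SE 2.20, edgeR unadjusted p 0.101, adjusted p 1). Its IN libraries were close together, at 3.88 ± 0.279 CPM. mrps16.L overlaps vps13d.L on the opposite strand by 124 bases, and its coding reads, 0, 0 and 0 in NPC against 43, 43 and 41 in IN, came to 104.1% of its mRNA reads.

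mrpl51.L, mrpl44.S and mrpl34.L completed the members of lowest p on the IN side, and in each the groups overlapped. For mrpl51.L, whose reads are given above, the log2 fold change was 4.77 (SE 1.79, edgeR unadjusted p 0.0149, adjusted p 1), with IN replicate 2 carrying most reads, and without that library it was 1.87 (SE 2.57). mrpl44.S, an exit tunnel protein that overlaps daw1.S on the opposite strand by 1026 bases, had 12, 2 and 0 reads in NPC against 0, 39 and 409 in IN. Over coding sequence mrpl44.S had 1, 16 and 0 reads in NPC against 0, 31 and 0 in IN, so that IN replicate 3, highest in the mRNA table, was at 0 in the coding table. mrpl34.L, of bacterial type, had 1, 14 and 2 reads against 121, 181 and 1. IN replicate 3 carried nearly all reads of mrpl44.S and almost none of mrpl34.L, and the log2 fold change of mrpl44.S was 4.87 with it and 1.93 without it.

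**Figure D3:**
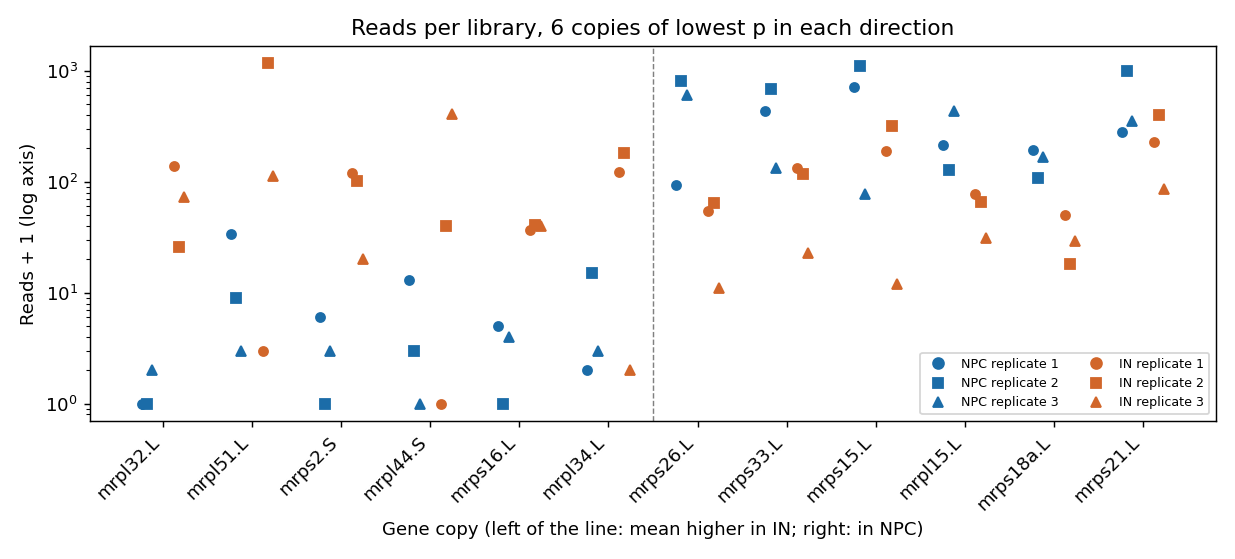
Reads + 1 (log axis) in each of the 6 libraries for the 6 members of lowest p in each direction; blue points are NPC and orange points IN libraries, with a marker shape for each replicate number. The groups are apart for mrpl32.L, mrps2.S and mrps16.L on the left and for mrps26.L, mrps18a.L and mrpl15.L on the right, as well as for mrps33.L after scaling.

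Members were also read by their place in the ribosome. The L7/L12 stalk recruits translation factors, and its 5 tested copies had fold changes above 0 in 2 and below 0 in 3. mrpl12.L, the stalk protein itself, had 70, 58 and 208 reads in NPC against 78, 100 and 32 in IN. mrpl53.L had 60, 187 and 0 reads against 248, 0 and 577, and neither gene separated the groups. The remaining stalk copy, mrpl10.S, the base of the stalk, did not pass the filter, at 0, 2 and 0 reads in NPC against 134, 5 and 234 in IN. Its groups did not overlap, by the narrow margin of IN replicate 2 at 0.507 CPM and NPC replicate 2 at 0.25 CPM.

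The central protuberance sits at the top of the large subunit, and its 10 tested copies were divided into 5 with a fold change above 0 and 5 below. mrpl38.L had 260, 15 and 947 reads in NPC against 553, 1166 and 870 in IN, and mrpl18.L 191, 35 and 105 against 580, 196 and 12. NPC replicate 3 reached the IN libraries in mrpl38.L, and IN replicate 3 was lowest of all in mrpl18.L. Proteins around the exit tunnel lie where the new chain leaves and the ribosome is held at the inner membrane. Of their 8 tested copies, 6 had fold changes above 0, against 49.0% of all genes tested. The median log2 fold change of these copies was 1.22. mrpl45.L, which anchors the ribosome to the membrane in mammals, had 159, 75 and 26 reads in NPC against 9, 232 and 338 in IN. mrpl39.L had 35, 109 and 26 reads against 42, 796 and 160, and mrpl23.S 28, 33 and 65 against 48, 124 and 236. Over coding sequence mrpl39.L had 35, 0 and 0 reads in NPC against 20, 427 and 18 in IN. mrpl45.L overlaps gpr179.L on the opposite strand by 961 bases, and mrpl23.S a gene without a symbol on the same strand by 588 bases. Groups overlapped in all 8 exit tunnel copies, and the IN sum of 108 ± 49.4 CPM against 57.2 ± 13.5 in NPC overlapped as well, with 50.7 CPM in IN replicate 1.

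By evolutionary origin, the 52 tested copies of bacterial type had fold changes above 0 in 28 and below 0 in 24, with a median of 0.04. The 28 mitochondrion-specific copies had 17 above and 11 below, with a median of 0.79. In sums, bacterial-type members came to 575, 1050 and 707 CPM in NPC and 549, 647 and 575 in IN. Mitochondrion-specific members came to 455, 550 and 578 CPM against 315, 853 and 819. Both pairs of groups overlapped.

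The large and small subunits were then compared as sums of all their members in each library. Large-subunit members summed to 515, 723 and 679 CPM in NPC and to 539, 1031 and 878 CPM in IN, or 639 ± 110 against 816 ± 252 (SD, n = 3 each). Small-subunit members summed to 515, 877 and 606 CPM in NPC and to 325, 469 and 516 CPM in IN, or 666 ± 188 against 436 ± 99.7. Either sum overlapped between groups, the small-subunit sum by the narrow margin of NPC replicate 1 and IN replicate 3. All members together came to 1310 ± 283 CPM in NPC and 1258 ± 332 in IN.

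The ratio of the large-subunit to the small-subunit sum, which does not depend on scaling between libraries, was separated by group. It was 0.999, 0.824 and 1.12 in NPC and 1.66, 2.20 and 1.70 in IN. The same ratio was 1.29, 0.931 and 1.63 in NPC and 2.33, 2.25 and 1.97 in IN over STAR coding counts, and 1.29, 0.929 and 1.63 against 2.35, 2.34 and 1.99 over TopHat2 coding counts. The ratio was looked at after the data were seen, and as a score over the members it carries no test. For cytosolic ribosomal proteins it was 1.07, 1.13 and 1.20 in NPC and 1.14, 1.06 and 1.15 in IN. Those genes varied far less between libraries, with a median coefficient of variation of 38.4% against 107% for tested members. They are therefore no like measure of how far such a ratio can move.

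Fold changes of single copies were spread to both sides in both subunits. Small-subunit fold changes were above 0 in 14 copies and below 0 in 15, with a median log2 fold change of -0.07, and large-subunit ones above 0 in 31 and below 0 in 20, with a median of 0.22. The 5 small-subunit copies of largest excess in NPC were mrps26.L, mrps15.L, mrps21.L, mrps33.L and mrps35.L. Without them the ratio of the sums was 2.09, 1.86 and 1.49 in NPC and 2.31, 2.74 and 1.75 in IN, and the groups overlapped. These copies were chosen for the difference itself, so leaving them out narrows it by construction. The 5 large-subunit copies of largest excess in IN were mrpl51.L, mrpl38.L, mrpl39.L, mrpl41.L and mrpl43.L. mrps35.L, a small-subunit protein specific to mitochondria, had 1016, 321 and 19 reads in NPC against 319, 9 and 14 in IN, which shows how much of a sum a single copy in a single library could carry. It overlaps loc100492908.L on the opposite strand by 632 bases, and over coding sequence it had 1, 122 and 12 reads in NPC against 184, 0 and 1 in IN.

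**Figure D4:**
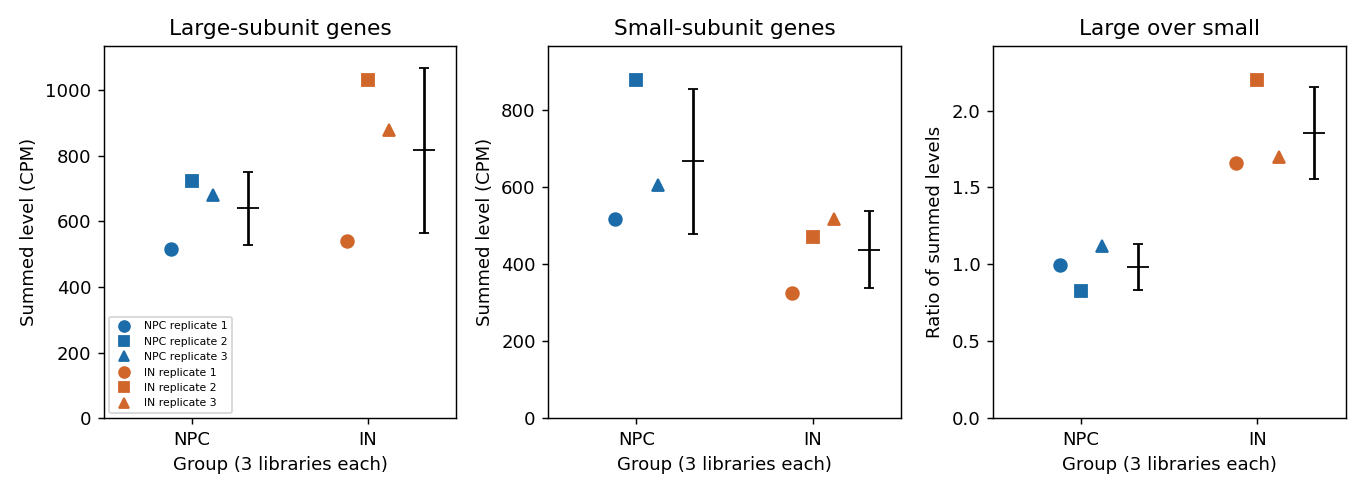
Summed level (CPM) of large-subunit members, summed level of small-subunit members, and the ratio of these sums in each library, with mean and SD of 3 libraries as black bars. The sums overlap between groups, whereas the ratio lies between 0.824 and 1.12 in NPC and between 1.66 and 2.20 in IN.

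Both copies were annotated for 29 of the 75 genes, on matching L and S chromosomes in 26. Over all libraries the S copy held more of the level in 20 pairs and the L copy in 9. These counts take in 11 pairs in which a copy held under 10% of the level. The same share over all gene pairs was not worked out, so the counts are not a trait of this family. Summed over the pairs, the L share was 63.4%, 47.9% and 54.1% in NPC and 50.2%, 47.0% and 29.0% in IN, with overlap between groups. How reads shared by L and S copies were assigned was not given in the sources used here, so shares of near-identical copies are uncertain.

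In most of the 14 pairs with both copies tested, the copy with more reads was not the same in every library. The L share went from under 25% in some library to over 75% in another in 9 of these pairs (64.3%), against 40.4% of all 5839 gene pairs with both copies tested. The copies in these 14 pairs also varied more, with a median coefficient of variation of 107% against 78.6% over all such pairs. Tested members lay at a lower median CPM than all genes tested. The part of level and spread in the higher share of such pairs was not tested. In mrps25 the S copy was the higher in every library, with an L share of 0% to 45.8%. mrpl11, a protein at the base of the stalk, had 251, 1 and 47 reads of the L copy in NPC against 96, 586 and 1 of the S copy. Its L share was 72.3%, 0.170% and 97.9% in those libraries and 59.4%, 32.7% and 31.4% in IN. mrpl52 had 4, 249 and 53 L reads in NPC with 243, 31 and 5 S reads, and 0, 35 and 31 L reads in IN with 27, 315 and 156 S reads. In mrpl11 and mrpl52 a library poor in 1 copy was often rich in the other, and neither copy was tied to a group.

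Sums of L and S copies varied less than the copies did, as they did over all gene pairs. The median coefficient of variation was 107% for the copies in these 14 pairs and 75.8% for their sums. Over all pairs with both copies tested it was 78.6% for the copies and 58.8% for the sums. The sum was steadier than either copy in 10 of 14 pairs (71.4%, against 61.9% of all pairs). mrps7, of bacterial type, had 151, 2 and 402 L reads and 2, 348 and 1 S reads in NPC, and its sum was at 16.2, 43.8 and 51.0 CPM there and 21.9, 15.5 and 24.8 in IN. In IN its S copy held 0, 0 and 4 reads, and that copy did not pass the filter. mrps7.S overlaps mif4gd.S by 1589 bases and gga3.S by 100 bases, both on the opposite strand. Its coding reads, 2, 499 and 1 in NPC against 0, 0 and 48 in IN, came to 154.9% of its mRNA reads. With L and S reads summed, 0 of 68 genes of the family passed edgeR's adjusted test, as did 0 of all 13573 genes tested. The lowest unadjusted p of edgeR in the family was 0.00506 for mrps26, which has only an L copy in this annotation.

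**Figure D5:**
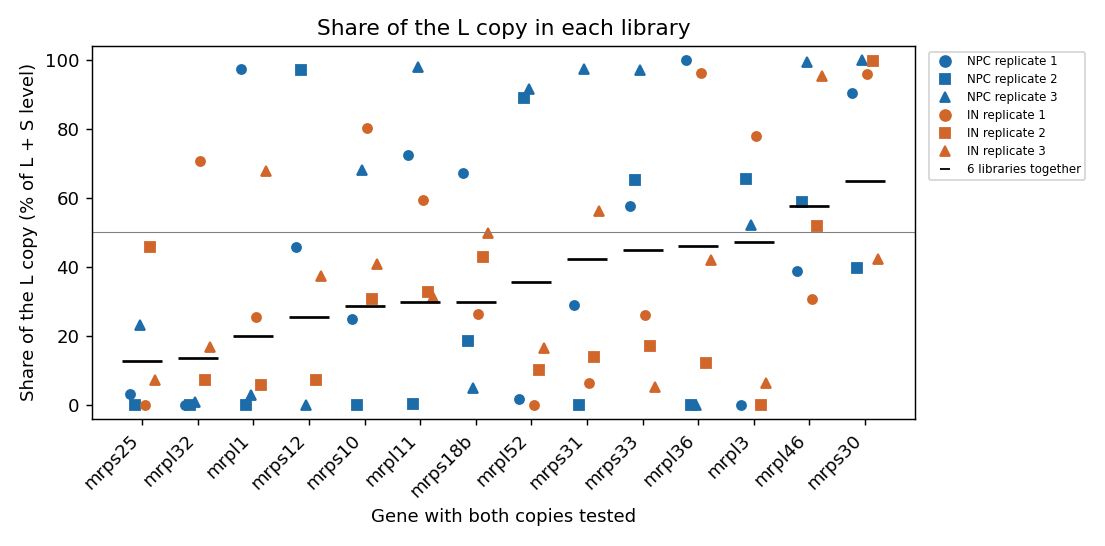
Share of the L copy in the summed L and S level (%) for the 14 genes with both copies tested, in each library (blue NPC, orange IN) and over the 6 libraries together (black bar). The share of mrpl11 runs from 0.170% to 97.9% within NPC, whereas that of mrps25 stays at or under 45.8% in every library.

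In some pairs the counted reads came almost entirely from 1 copy. Over pairs of at least 300 reads, the L copy took 100% of the level of mrps15, 99.9% of mrps21, 98.0% of mrps35 and 90.5% of mrpl41. It took 0% of mrpl42, 0% of mrpl44, 0.110% of mrps24 and 0.291% of mrpl17. mrps15.S, mrpl42.L and mrpl44.L had no read in any library of the mRNA table, whereas their partners had 2415, 1008 and 462 reads in all. For mrpl41 the share came from 1 library, since mrpl41.L had 3, 0 and 0 reads in NPC against 0, 12 and 711 in IN. mrpl41.L also overlaps dph7.L on the opposite strand by 1545 bases, and mrpl42.L overlaps angpt4.L by 1329 bases. In the STAR coding table mrpl42.L had 9 reads in IN replicate 2. mrpl42.S, the partner of mrpl42.L, had 25, 7 and 168 reads in NPC against 157, 7 and 644 in IN, and mrps24.S had 335, 753 and 2 against 72, 51 and 424.

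Copies almost without reads had short or bare gene models. Of the 105 members, 7 had at most 3 reads in all 6 libraries together: mrpl17.L, mrpl42.L, mrpl44.L, mrps15.S, mrps21.S, mrps23.S and mrps24.L. Apart from mrps21.S, none of them had an annotated UTR. The model of mrpl42.L held 261 coding bases against 462 for mrpl42.S, that of mrpl17.L 300 against 507, and that of mrps15.S 477 against 750 for mrps15.L. mrpl17.L and mrpl17.S lie on chromosomes 1L and 8S and so are not a matching pair of positions. For mrpl44 the L model without reads was the longer, with 1032 coding bases against 972. Over all members, an annotated UTR was present in 76 of 81 tested copies and in 15 of 24 untested ones, and the median coding length was 588 against 402 bases.

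Neighbouring genes add to the uncertainty of single copies. The annotation places 21 members over another gene, 18 of them over a gene on the opposite strand, and the strand setting of the counting was not given in the sources used here. mrps11 and mrpl46 are divergent neighbours in both subgenomes. The L copies lie 93 bases apart and the S copies overlap by 70 bases. mrpl46.L had 33 to 195 reads per library and mrps11.L 1 to 73, so neighbours that share a start region differed widely in reads.

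No other listed gene of mitochondrial protein synthesis passed edgeR's adjusted test either. Of ribosomal proteins under other names, 8 of 11 annotated copies were tested and 0 passed edgeR's test, with fold changes above 0 in 1 and below 0 in 7 and a median of -0.74. ict1.L, a peptidyl-tRNA hydrolase built into the large subunit, had 78, 252 and 117 reads in NPC against 60, 50 and 14 in IN, without overlap after scaling. Its log2 fold change was -2.13 (SE 1.64, edgeR unadjusted p 0.209, adjusted p 1). aurkaip1.L and gadd45gip1.S had log2 fold changes of -0.83 and -0.77, which turned to 0.59 and 0.60 without NPC replicate 2. dap3.L, a GTP-binding protein of the small subunit, had 92, 14 and 10 reads against 20, 8 and 82.

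Of ribosome assembly and rRNA factors, 22 copies were tested and 0 passed with edgeR (10 above 0 and 12 below). malsu1.L, an assembly factor that keeps the large subunit from joining too early (6L, 35214767 to 35222059, minus strand), had 39, 114 and 171 reads in NPC against 0, 0 and 0 in IN. With reads pooled over the libraries of each group and a floor of 3 reads for IN, the ratio was at least 126-fold. This bound covers counting error only. It leaves out the spread between libraries and is no result of its own. Without IN reads, malsu1.L passed the filter on low counts only through its NPC libraries, so its separation was fixed by that filter. Over coding sequence malsu1.L had 17, 0 and 106 reads in NPC and 0 in each IN library. edgeR gave an unadjusted p of 0.00232 and an adjusted p of 1, and DESeq2 an adjusted p of 0.00432. rbfa.S, which helps to mature the small subunit, had 123, 41 and 114 reads against 2, 1 and 21, without overlap, at a log2 fold change of -3.71 (SE 2.11, edgeR unadjusted p 0.0941), or -6.05 without IN replicate 3. Its coding reads, 7, 41 and 1 in NPC against 2, 0 and 21 in IN, overlapped. ftsj2.S, an rRNA methyltransferase, had 0, 1 and 9 reads against 10, 278 and 4.

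Of mitochondrial translation factors, 21 copies were tested and 0 passed (10 above 0 and 11 below). mrrf.L, the factor that recycles ribosomes after a protein is finished (8L, 12980434 to 12993848, minus strand), had 93, 77 and 128 reads in NPC against 3, 5 and 1 in IN. With so few IN reads, mrrf.L passed the filter on low counts only through its NPC libraries, so its separation was fixed by that filter. Its NPC libraries were even, at 11.9 ± 3.73 CPM against 0.302 ± 0.202 in IN, and the log2 fold change was -5.24 (SE 2.17, edgeR unadjusted p 0.0253, adjusted p 1; DESeq2 adjusted p 0.0883). Over coding sequence mrrf.L had 2, 51 and 0 reads against 0, 4 and 0, and the groups overlapped there. The elongation factors tufm.S, with 29, 7 and 647 reads against 25, 106 and 3, and gfm1.L, with 301, 115 and 12 against 96, 210 and 66, overlapped. tsfm.S, the exchange factor of tufm, had 0, 107 and 110 reads against 1, 17 and 0. mtif2.L, an initiation factor, had 15, 0 and 736 reads against 1, 0 and 85.

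Of genes of mitochondrial transcription and DNA replication, 7 of 16 copies were tested and 0 passed (4 above 0 and 3 below). tfb2m.L, which opens mitochondrial promoters with the polymerase, had 7, 0 and 0 reads in NPC against 354, 122 and 43 in IN, and mgme1.S, a nuclease of mitochondrial DNA, 11, 1 and 6 against 50, 215 and 155. Both were without overlap, at log2 fold changes of 6.02 (SE 2.30, edgeR unadjusted p 0.0163) and 4.35 (SE 2.04, unadjusted p 0.0455). With so few NPC reads, tfb2m.L passed the filter on low counts only through its IN libraries, so its separation was fixed by that filter. Over coding sequence tfb2m.L had 4, 0 and 0 reads against 0, 66 and 29, with overlap, and mgme1.S 0, 0 and 0 against 5, 5 and 77, without. Without NPC replicate 1 the fitted value of tfb2m.L was 10.3, against NPC libraries at 0. The polymerase polrmt.L had 199, 31 and 118 reads against 248, 960 and 100, and the DNA-packaging factor tfam.L 62, 368 and 1018 against 147, 129 and 360, with overlap in both. ssbp1.L, which binds single-stranded mitochondrial DNA, had 17, 0 and 156 reads against 10, 0 and 0.

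Of nuclear regulators of mitochondrial genes, 19 copies were tested and 0 passed (10 above 0 and 9 below). Of the copies of yy1, a zinc finger factor, yy1.S had 4, 47 and 9 reads in NPC against 186, 210 and 255 in IN, without overlap, and yy1.L had 1394, 542 and 37 against 6, 141 and 372, with overlap. Their log2 fold changes were 3.14 (SE 1.70) and -2.05 (SE 1.23), and neither passed edgeR's test (unadjusted p 0.0787 and 0.112). Without NPC replicate 2 the value of yy1.S was 4.80, and that of yy1.L was -1.06 without NPC replicate 1 and -3.29 without IN replicate 3. gabpa.L, an ETS factor of the class that binds promoters of many ribosomal and respiratory genes, had 89, 115 and 432 reads against 647, 210 and 499, and myc.S 482, 6 and 59 against 28, 26 and 11. The groups overlapped in both.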

How the data were processed

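RNA from 6 libraries was sequenced as single-end reads of 100 bases, per the labels' protocols. The authors deposited whole-number read counts, not normalized, in 3 tables: STAR over mRNA, STAR over coding sequence and TopHat2 over coding sequence. The submitters' processing notes also list Trimmomatic, FastQC, DESeq2 and HTSeq, with no role or version. Strand setting, counting mode and treatment of reads matching several places were not given in the sources used here. Columns named D were read as dark (NPC) and L as light (IN), numbered as the sample titles. Names and 1-based positions came from the deposited annotation (build 9.1, per the file headers); RefSeq (v10.1) holds 90 of the 105 member symbols.

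mRNA counts were the main table. After filterByExpr and TMM scaling, genes were tested with edgeR 4.0.16 (robust quasi-likelihood test, two-sided, R 4.3.3), Benjamini-Hochberg adjusted over all 19158 genes at a threshold of 0.05. The standard error is the log2 fold change divided by the square root of F. The biological coefficient of variation was 111%. Levels are CPM on TMM-scaled libraries; RPKM divides these by annotated exon length. PCR copies cannot be told from separate molecules, so intervals, floors and counts of 0 cover counting error only. Whether libraries came from separate animals is not in the labels, so p-values reflect only the spread among these 6 libraries, which may be technical.

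Alternatives were other scalings and filters, DESeq2 1.42.0, limma-voom (limma 3.58.1), both coding tables, a block for the replicate number, leaving out each library, and L and S copies summed. The code was tested on simulated counts. Members and lists were chosen with earlier results of these data known. Members given in full were chosen by rule. They were the 5 of highest RPKM per subunit, the 6 of lowest p per direction, and the tested ones without overlap at 5 CPM or more. The 4 most and least variable tested ones at 10 CPM or more were added. So were the 4 pairs at each extreme of L share and members whose name and place differ. From the other lists came the 3 genes of lowest p each, with tfam, polrmt, tufm, gfm1, dap3 and gabpa. Of the rest, mrpl11, mrpl52, mrps7 and the stalk, protuberance and exit tunnel examples, and others outside these rules, were chosen after their values were seen.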

Additional observations from a re-analysis of the deposited data

How the results depend on the processing

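The count of 0 members passing edgeR held under both other scalings, both other filters, limma-voom, both coding tables, summed copies and every library left out; DESeq2 gave 1 member and 1 other gene of mitochondrial translation. Over all genes, 16 passed without a filter, 88 with DESeq2 and 0 to 2 with a library left out (1 without NPC replicate 1 and 2 without NPC replicate 3); the cause was not tested. The 7 members without overlap became 6 to 8 (7.84% to 11.6% of members tested, against 6.82% to 9.63% of all genes) under other scalings, filters, tables or summed copies. They were 11 to 25 (12.1% to 28.1%, against 16.6% to 21.5% of all genes) with a library left out, where fewer libraries make overlap rarer (19, 11 and 17 without NPC replicates 1, 2 and 3, and 25, 13 and 15 without IN replicates 1, 2 and 3). Over STAR and TopHat2 coding counts, where members take a larger part of the reads, the large-subunit sum was 943 and 949 CPM in NPC and 1173 and 1188 in IN, and the small-subunit sum in IN was 541 and 536. The ratio of these sums had a mean of 0.982 in NPC and 1.85 in IN, and 1.28 and 2.18 (STAR coding) or 1.29 and 2.22 (TopHat2 coding). It was 1.81 and 2.27 without the 5 small-subunit copies of largest excess in NPC, and 1.60 and 1.65 also without the 5 large-subunit copies of largest excess in IN; these were chosen for the difference itself, so leaving them out narrows it by construction and shows nothing on how widely it is shared; with a library left out it ran from 0.912 to 1.06 in NPC and from 1.68 to 1.95 in IN. With a library left out, the large-subunit sum ran from 597 to 701 CPM in NPC and 708 to 954 in IN, the small-subunit sum from 560 to 741 and 397 to 492, and the L share from 51.0% to 58.8% and 38.0% to 48.6%. Of 384 values for 27 fold changes, 379 kept direction and side of the threshold, 2 passed it (mrps26.L and malsu1.L with DESeq2) and 3 changed sign with a library left out: aurkaip1.L (-1.33 to 0.59) and gadd45gip1.S (-2.26 to 0.60), both highest without NPC replicate 2, and mtif2.L (-8.95 to 1.88), highest without NPC replicate 3. Same-numbered libraries shared only a number in the labels. Their deviations from group means correlated at 0.115, 0.0467 and 0.0813 over genes, each above its correlations with other numbers. The coding share of all counted reads also went by number. It was 45.1% for NPC replicate 1 with 45.9% for IN replicate 1. For number 2 it was 55.1% (NPC) with 54.0% (IN), and for number 3 61.0% (NPC) with 60.9% (IN). Both are hints from the data and not the design, and their cause was not tested. With the replicate number as a block, 0 genes and 0 members passed. The filter on low counts left 24 members untested.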
